A study of Mus musculus with 2 samples.

Results

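The integrated stress response was followed through 10 of its effector genes, chosen by name among the 31053 genes of the count tables: Atf4, Ddit3, Trib3, Atf3, Atf5, Chac1, Asns, Sesn2, Ppp1r15a and Eif4ebp1. The mice were male C57/B6, 16 weeks old, and each of the 2 single-cell RNA libraries pooled the islets of 4 of them. The wild-type (WT) library has no diet in its labels, and by the study's methods mice not on the high-fat diet ate standard chow. For the high-fat diet (HFD) library, feeding with a lard-based diet of 60 kcal% fat began at 6 weeks and lasted 10 weeks. The cells, cleared of dead ones, were loaded on the 3′ v3 chemistry of 10x Genomics, which counts each captured transcript once by a unique molecular identifier (UMI). With 1 library per group, diet, islet preparation and library cannot be told apart, no test was possible, and each 95% interval below covers counting error only.

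In the integrated stress response, kinases that sense misfolded proteins in the endoplasmic reticulum (ER), amino acid shortage, viral RNA or haem shortage phosphorylate the initiation factor eIF2, which lowers protein synthesis as a whole. Translation of Atf4 mRNA is favoured in that state, and the ATF4 protein then switches on transcription factors, amino acid enzymes and feedback inhibitors. β cells make large amounts of proinsulin and are known to depend on this brake, and RNA counts do not show how much ATF4 protein is made.

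ATF4 acts through a composite site called CARE, spelled TGATGNAAN, in which N is any base. RefSeq promoters of GRCm38.p6, 250 bases before to 50 after the start site, were given for 9 of the 10 genes. They were searched on both strands for CARE and for the cyclic AMP response element (CRE), spelled TGACGTCA. CARE letters were found for 4 of the 9 genes (Chac1, Trib3, Asns and Atf3), against 4.43% of 26742 genes. CRE letters were found for 1 of the 9 (Ppp1r15a), against 2.05%. Atf4, Ddit3, Atf5 and Sesn2 had neither. The 5 matches are shown because the genes that carry them differ in their HFD to WT ratio. Each line runs 5′ to 3′ on the strand of the gene, and the capitals mark the match, which for Chac1, Trib3 and Atf3 reads as CARE on the opposite strand.
Chac1: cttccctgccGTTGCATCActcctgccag
Trib3: ttagctcaggTTTACATCAgccgggcggg
Atf3: ccttctcgcaCTTGCATCAccaagtccgc
Asns: cccagccacaTGATGAAACttcccgcacg
Ppp1r15a: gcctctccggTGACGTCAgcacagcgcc
They lie at chr2:119351038-119351066 (Chac1, + strand, match from position -194 to the start site), chr2:152344029-152344057 (Trib3, - strand, match from position 14 after it), chr1:191183426-191183454 (Atf3, - strand, position -111), chr6:7693214-7693242 (Asns, - strand, position -23) and chr7:45526263-45526290 (Ppp1r15a, - strand, position -12). Such a match describes letters and not binding.

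After filters, 2498 WT cells and 6672 HFD cells were kept, with medians of 24030 and 10919 UMIs. Cells named β-like from their clusters, in which Ins1, Ins2, Iapp, Mafa, Nkx6-1, Slc2a2, G6pc2 and Ucn3 were all detected, numbered 1892 in WT and 5833 in HFD. They held 62237766 and 78640094 UMIs, and a median of 60.5% and 57.2% of a cell's UMIs came from insulin. The clusters divided by library: 3 clusters (0, 1 and 5) held 1706 of the 1892 WT cells, and 4 others (3, 4, 7 and 12) held 5223 of the 5833 HFD cells. The other classes compared were endothelial-like (160 WT and 134 HFD cells), α-like (52 and 185), δ-like (48 and 111), ductal-like (58 and 35), macrophage-like (40 and 45), fibroblast-like (59 and 23) and PP-like (21 and 43). Of all barcodes, 9 occurred in both libraries, 3 of them among kept cells.

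The first question was which of the 10 genes differed between HFD and WT β-like cells. Chac1, Trib3 and Ddit3 were over 1.5-fold higher in HFD, Eif4ebp1, Sesn2, Atf4 and Asns were higher by less, and Atf5, Atf3 and Ppp1r15a were lower by less than 1.5-fold. Thus 3 of 10 genes passed 1.5-fold upward, where 3.20% of the 12329 genes with at least 50 UMIs did, and 0 of 10 passed it downward, where 5.88% of all genes did. The median log2 ratio of the 10 genes was 0.28, and that of all genes -0.02. Levels are given as CPM, the UMIs of a gene scaled by all UMIs of the same cells.

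Among the transcription factors, Atf4, on whose translation the response turns, had 169 CPM in WT (166 to 173) and 195 CPM in HFD (192 to 198), a ratio of 1.15 (1.12 to 1.18). Ddit3, which encodes the factor CHOP known for its part in death under long ER stress, had 89.4 CPM in WT (87.1 to 91.8) and 159 CPM in HFD (156 to 162), a ratio of 1.78 (1.72 to 1.84). Atf5, a factor of the same family, had 120 CPM in WT (117 to 122) and 82.5 CPM in HFD (80.5 to 84.6), a ratio of 0.690 (0.668 to 0.714). Atf3, which is also an early response gene, had 81.9 CPM in WT (79.7 to 84.2) and 64.5 CPM in HFD (62.7 to 66.3), a ratio of 0.787 (0.757 to 0.819). The 4 transcription factors thus differed in direction.

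Of the targets that act as enzymes or regulators, Chac1, which breaks down glutathione, had 24.1 CPM in WT (22.9 to 25.4) and 75.7 CPM in HFD (73.8 to 77.7), a ratio of 3.14 (2.96 to 3.32). Trib3, a pseudokinase that restrains AKT and feeds back on ATF4, had 7.89 CPM in WT (7.21 to 8.62) and 24.0 CPM in HFD (23.0 to 25.2), a ratio of 3.05 (2.76 to 3.37). For both genes the interval of the WT level lay far below that of the HFD level. Asns, which makes asparagine, had 66.1 CPM in WT and 75.2 CPM in HFD, a ratio of 1.14 (1.09 to 1.18). Sesn2, a sestrin that restrains mTORC1, had 16.8 and 21.6 CPM, a ratio of 1.29 (1.19 to 1.39).

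Of the regulators of translation, Eif4ebp1, whose protein 4E-BP1 holds the cap-binding factor eIF4E, had 38.9 CPM in WT (37.4 to 40.5) and 57.3 CPM in HFD (55.6 to 59.0), a ratio of 1.47 (1.40 to 1.55). Ppp1r15a, whose protein GADD34 brings a phosphatase to eIF2, ends the response and so restores translation, had 63.6 CPM in WT (61.6 to 65.6) and 57.0 CPM in HFD (55.3 to 58.7), a ratio of 0.896 (0.859 to 0.936). In the plot of ratios by class, the 3 genes furthest to the right in β-like cells are Chac1, Trib3 and Ddit3.

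**Figure D1:**
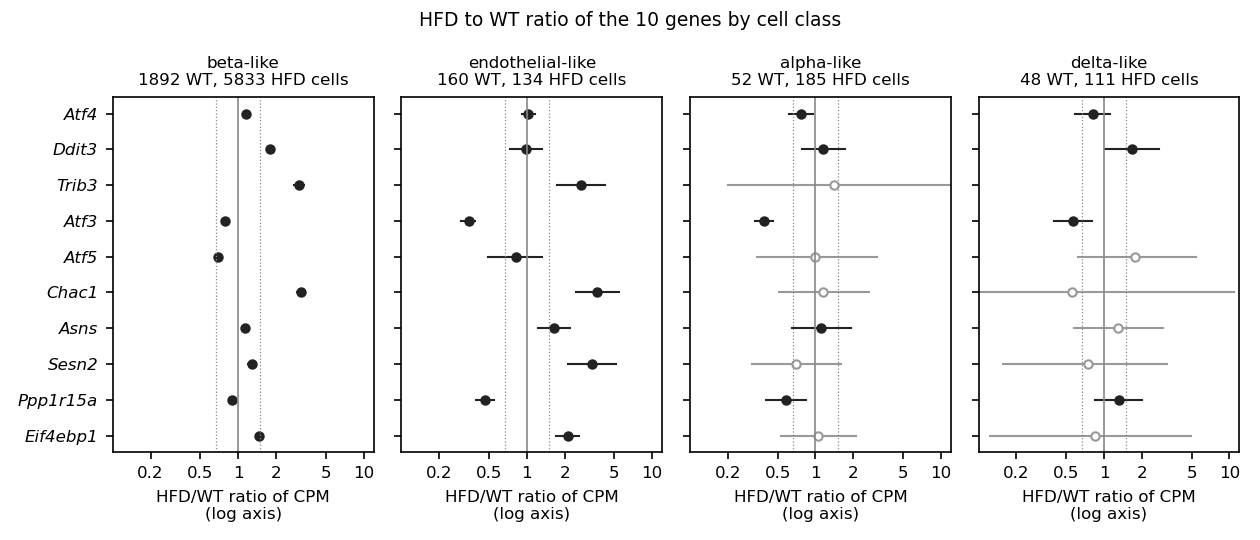
HFD to WT ratio of CPM (log axis) for each of the 10 genes in 4 cell classes, with exact 95% counting intervals cut at the ends of the axis. Filled points had at least 50 UMIs over both libraries, open grey points had fewer, and dotted lines mark 1.5-fold in either direction. Chac1 and Trib3 lie to the right of 1.5-fold in β-like and endothelial-like cells, and Atf3 lies to the left of 1 in all 4 panels.

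Cells of the libraries differed in UMIs, so β-like cells were compared within 5 bands of UMIs per cell. Chac1 was over 1.5-fold higher in HFD in all 5 bands, with ratios from 1.76 to 10.5, the highest of which rests on 2 WT UMIs. Trib3 was over 1.5-fold higher in both bands above 15000 UMIs. At 10000 to 15000 UMIs, 18 WT UMIs gave 19.6 CPM and 552 HFD UMIs gave 25.2 CPM, a ratio of 1.29 (0.807 to 2.19). In each of the lowest 2 bands WT held 1 Trib3 UMI, against 17 in HFD up to 5000 UMIs and 353 at 5000 to 10000, with ratios of 6.58 (1.03 to 275) and 9.10 (1.62 to 361). Ddit3 ratios ranged from 1.26 to 3.51, and their intervals lay above 1 in all 5 bands. They passed 1.5-fold only in the lowest 2 bands, where WT held 22 and 20 Ddit3 UMIs.

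The bands above 15000 UMIs held most WT cells. Above 30000 UMIs, in 935 WT and 140 HFD cells, Chac1 had 22.9 CPM in WT and 73.1 CPM in HFD, a ratio of 3.20 (2.82 to 3.62). Trib3 had 7.18 and 19.4 CPM there, a ratio of 2.71 (2.12 to 3.43), and Ddit3 had 85.4 and 118 CPM, a ratio of 1.39 (1.27 to 1.52). Atf5 was lower in HFD in every band, past 1.5-fold in all 5, with ratios from 0.429 to 0.551. These ratios lay below the pooled ratio of 0.690, whereas those within the subclusters described next lay above it.

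Atf3 changed direction with UMIs per cell. Its ratio was 1.69 (1.02 to 2.95) up to 5000 UMIs, and 0.357 (0.299 to 0.423) above 30000 UMIs, where WT had 82.3 CPM and HFD 29.4 CPM. Atf4 ratios stayed between 0.947 and 1.41, and only the interval at 5000 to 10000 UMIs lay above 1. Asns was lower in HFD in 4 of 5 bands although its pooled ratio was above 1, and Sesn2 was lower at 10000 to 15000 UMIs with a ratio of 0.687 (0.472 to 1.04). Ppp1r15a ratios ran from 0.717 to 1.36, and Eif4ebp1 ratios from 0.701 to 1.94.

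The count of genes over 1.5-fold higher is read against all genes of each band. It was 3 of 7 genes up to 5000 UMIs (Ddit3, Atf3 and Chac1), where 20.6% of all genes passed, and 3 of 10 at 5000 to 10000 UMIs (Ddit3, Trib3 and Chac1), where 24.7% did. It was 1 of 10 at 10000 to 15000 UMIs (Chac1), against 9.88%. It was 2 of 10 at 15000 to 30000 UMIs (Trib3 and Chac1), against 2.77%, and 2 of 10 above 30000 UMIs (the same genes), against 3.88%. Genes past 1.5-fold lower were Atf5 and Asns up to 5000 UMIs (2 of 7, against 4.03% of all genes), Atf5 alone at 5000 to 10000 (1 of 10, against 13.4%), at 10000 to 15000 (against 25.0%) and at 15000 to 30000 (against 11.6%), and Atf5 and Atf3 above 30000 (2 of 10, against 19.7%). At 5000 to 10000 UMIs the Trib3 call rests on 1 WT UMI. In the lowest 3 bands 103, 53 and 70 WT cells were available, so WT levels there rest on few UMIs.

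**Figure D2:**
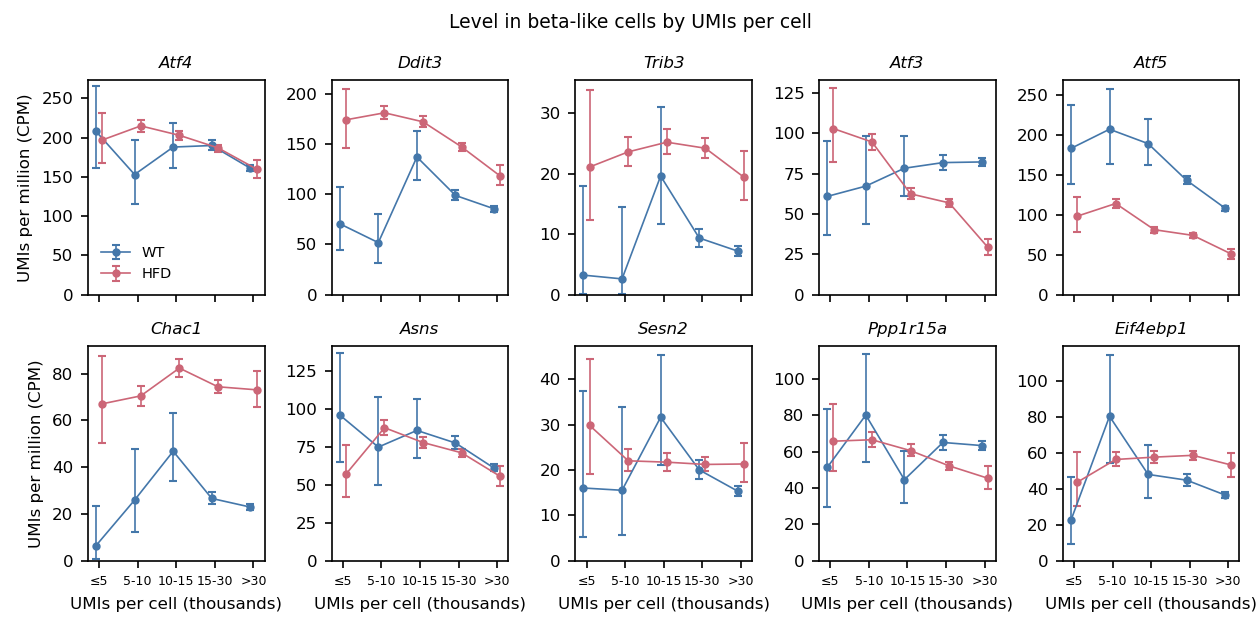
Level of each gene in β-like cells (CPM, axis from 0) in WT (blue) and HFD (red) by UMIs per cell, with exact Poisson 95% intervals. Chac1 is higher in HFD at every band, Atf5 is lower at every band, and Atf3 crosses from higher to lower, reaching 29.4 CPM in HFD against 82.3 CPM in WT above 30000 UMIs.

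The β-like cells were also divided into 8 subclusters found without these genes, of which 6 held at least 50 cells of each library. Those left out were subcluster 4, with 65 WT and 7 HFD cells, and subcluster 7, with 43 WT and 1650 HFD cells, which Try5 and Ctrb1 led. Chac1, Trib3 and Ddit3 were over 1.5-fold higher in HFD in 6 of 6, with ratios of 1.85 to 4.29 for Chac1, 1.71 to 5.71 for Trib3 and 1.59 to 2.97 for Ddit3. The highest Trib3 ratio (3.37 to 10.5, subcluster 1) rests on 14 WT UMIs, and the highest Chac1 ratio (2.96 to 6.47, subcluster 3) on 28. Of all genes, 14.9% passed in subcluster 0, 10.5% in subcluster 1, 2.54% in subcluster 2, 18.0% in subcluster 3, 9.55% in subcluster 5 and 3.98% in subcluster 6. The number of the 10 genes that passed was 6, 5, 4, 5, 3 and 4 in that order. Eif4ebp1, Sesn2 and Atf4 were above 1 in 6 of 6, with ratios of 1.10 to 2.35, 1.15 to 1.80 and 1.02 to 1.41. Atf5 was above 1 in 1 of 6, with ratios of 0.758 to 1.01, of which 3 had intervals below 1, and a geometric mean of 0.896 against 0.499 over the UMI bands. Asns was above 1 in 5 of 6 (0.888 to 1.53), and Ppp1r15a in 3 of 6 (0.754 to 1.27).

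The leading genes of subcluster 2 included the metallothioneins Mt1 and Mt2 and the interferon-responsive genes Ifit1, Cxcl10 and Rsad2. Among the 7 subclusters with at least 50 WT cells, it held the highest WT levels of Ddit3, Trib3, Chac1, Asns, Sesn2 and Eif4ebp1. For Ddit3 its 107 CPM (101 to 114) overlapped the 96.8 CPM (91.9 to 102) of subcluster 5. The Ddit3 level of subcluster 1, 93.6 CPM (83.1 to 105), overlapped it too. For Trib3, Asns and Sesn2 the WT interval overlapped that of subcluster 4, which held 65 WT cells. In subcluster 2, Trib3 had 20.5 CPM in WT and 35.0 CPM in HFD, Eif4ebp1 77.8 and 85.3 CPM, and Sesn2 30.9 and 35.6 CPM. The ratio of Eif4ebp1 was accordingly 1.10 (0.954 to 1.26) in subcluster 2 and 2.35 (1.85 to 3.03) in subcluster 1, which Dapl1 led. Atf3 had 36.7 CPM in WT and 81.7 CPM in HFD in subcluster 2, a ratio of 2.22 (1.89 to 2.61), and 165 CPM and 105 CPM in subcluster 6, which Sst and Gcg led, a ratio of 0.635 (0.559 to 0.721). Its pooled direction thus did not hold in each subcluster. Subcluster 6 was led by hormones of other islet cells (Sst, Gcg, Pyy and Ppy), although insulin made up a median of 48.3% of its UMIs. No β marker was among its leading genes, which also held for subclusters 1, 2, 4, 5 and 7. Leading genes do not show whether a marker that subclusters share is present. Insulin made up a median of 55.0% to 67.0% of UMIs in subclusters 1, 2, 4, 5 and 7. Atf3 was higher in α-like and δ-like cells than in β-like cells, and the part of such cells in the values of subcluster 6 was not tested. Without β-like cells that held over 1% of other hormones, the pooled ratio was 0.829 for Atf3, 1.77 for Ddit3, 2.98 for Trib3 and 3.08 for Chac1.

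**Figure D3:**
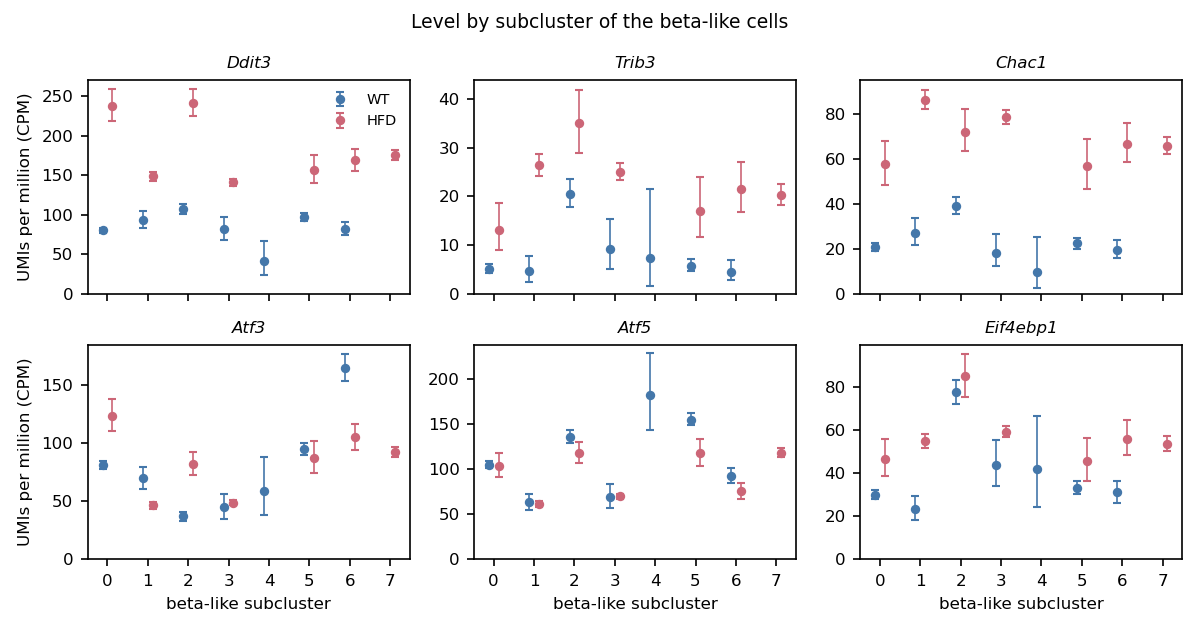
Level of 6 of the genes (CPM, axis from 0) in the subclusters of β-like cells, for WT (blue) and HFD (red) where at least 50 cells of that library were present, with exact Poisson 95% intervals. Ddit3, Trib3 and Chac1 are higher in HFD in all 6 subclusters that show both libraries, and Atf3 goes either way.

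Other cell classes were compared in the same way. Endothelial-like clusters also divided by library: cluster 13 held 43 WT and 3 HFD cells, and cluster 25 held 20 WT and 75 HFD cells. The part of this division in the endothelial-like ratios was not tested. In endothelial-like cells 5 of 10 genes were over 1.5-fold higher in HFD (Trib3, Chac1, Asns, Sesn2 and Eif4ebp1), where 6.20% of 5033 genes were, and 2 of 10 (Atf3 and Ppp1r15a) over 1.5-fold lower, where 13.2% were. Asns, at 1.65, was just under 1.5-fold with at most 15000 UMIs per cell and was 1.48 by the mean of single-cell CPM. Chac1 had 35.4 CPM from 46 UMIs in WT and 129 CPM from 61 UMIs in HFD, a ratio of 3.65 (2.45 to 5.48). Sesn2 had 31.5 and 104 CPM, a ratio of 3.29 (2.13 to 5.11), and Trib3 33.8 and 91.0 CPM, a ratio of 2.69 (1.73 to 4.19). Eif4ebp1 had 158 and 334 CPM, a ratio of 2.11 (1.71 to 2.61). Ddit3, however, had 140 CPM in WT and 138 CPM in HFD, a ratio of 0.983 (0.729 to 1.31), which lies below the interval of the β-like ratio.

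RNA released from β-like cells can enter other droplets, and the insulin share of a class was taken as a guide to its amount. This assumes that released RNA has the make-up of β-like cells, which was not tested. Insulin made up 0.409% of UMIs in WT and 1.02% in HFD endothelial-like cells. β-like RNA carried at that share would give 1.36 CPM of Chac1 and 0.432 CPM of Trib3 in HFD, against the 129 CPM and 91.0 CPM counted.

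Atf3 and Ppp1r15a were lower in HFD endothelial-like cells. Atf3 had 1687 CPM in WT (1617 to 1759) and 578 CPM in HFD (511 to 651), a ratio of 0.343 (0.301 to 0.389), and Ppp1r15a had 799 and 373 CPM, a ratio of 0.466 (0.395 to 0.548). In ductal-like cells Atf3 had 4483 and 1548 CPM in WT and HFD, the highest level of this gene among the classes of each library, and a ratio of 0.345 (0.308 to 0.386). In macrophage-like cells it had 1089 and 555 CPM, a ratio of 0.510 (0.369 to 0.694). In fibroblast-like cells the interval of the ratio included 1, at 722 and 701 CPM and a ratio of 0.970 (0.652 to 1.40).

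In α-like cells 5 genes had at least 50 UMIs. None was over 1.5-fold higher (0 of 5, against 3.12% of 3044 genes), and 2 of 5 were over 1.5-fold lower, against 12.5%. Atf3 had 678 CPM in WT and 263 CPM in HFD, a ratio of 0.388 (0.330 to 0.456), and Ppp1r15a had 111 and 64.4 CPM, a ratio of 0.581 (0.403 to 0.835). Ddit3 had 66.5 and 76.6 CPM, a ratio of 1.15 (0.774 to 1.73) whose interval ends below the β-like ratio of 1.78 and overlaps its interval (1.72 to 1.84) only at the edge. Atf4 had 247 CPM in WT and 190 CPM in HFD, a ratio of 0.769 (0.615 to 0.961). Chac1 (11 WT and 18 HFD UMIs) had a ratio of 1.15 (0.513 to 2.69), and Trib3 (2 and 4 UMIs) 1.40 (0.201 to 15.5).

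In δ-like cells 4 genes had at least 50 UMIs, of which 1 was over 1.5-fold higher, against 6.14% of 1742 genes, and 1 over 1.5-fold lower, against 6.26%. These were Ddit3, with 77.3 CPM in WT and 128 CPM in HFD and a ratio of 1.66 (1.01 to 2.76), and Atf3, with 269 and 152 CPM (101 and 51 UMIs) and a ratio of 0.566. Chac1 had 2 WT UMIs and 1 HFD UMI, and Trib3 1 and 0, so neither could be compared at this depth. Ductal-like cells also held more Chac1 in HFD, with 9 UMIs in WT and 13 in HFD, a ratio of 6.50 (2.57 to 17.2), and more Sesn2, with 26 and 29 UMIs, a ratio of 5.02 (2.85 to 8.87). In PP-like cells Ddit3 had 43.6 and 106 CPM, a ratio of 2.44 (1.27 to 4.85), and Chac1, with 0 WT and 7 HFD UMIs, was at least 3.37-fold higher against a limit of 3 counts. At the insulin share of ductal-like cells, β-like RNA would give 5.50 CPM of the 59.0 CPM of Chac1 counted in HFD.

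The order of the classes was given by each gene in each library. Atf4 was highest in ductal-like cells, with 814 CPM in WT and 1044 CPM in HFD, and in WT its endothelial-like level of 760 CPM (713 to 808) overlapped the ductal-like one (759 to 872). Ddit3 was highest in endothelial-like cells in WT and in β-like cells in HFD, and every pair of neighbours in its order overlapped in both libraries. Chac1, Trib3, Asns and Eif4ebp1 were highest in endothelial-like cells in both libraries. For Chac1 the endothelial-like level lay above the β-like one without overlap, at 35.4 CPM (25.9 to 47.2) against 24.1 CPM (22.9 to 25.4) in WT. Atf5 was highest in fibroblast-like cells and next highest in β-like cells in both libraries. Atf3 was lowest in β-like cells in both libraries, though in HFD its interval overlapped the PP-like one, and Ppp1r15a was lowest there in WT, overlapping the PP-like level too.

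Next, shares of cells with a UMI were compared at equal depth, with each cell thinned to 5000 UMIs, which left 1789 WT and 5616 HFD β-like cells. Chac1 was found in 197 WT cells (95% interval of the share 9.60% to 12.6%) and in 30.1% of HFD cells (28.9 to 31.3). Trib3 was found in 4.58% (3.66 to 5.66) and 10.8% (9.96 to 11.6), and Ddit3 in 34.1% (31.9 to 36.3) and 50.1% (48.7 to 51.4). Without thinning the Ddit3 shares were 81.7% and 76.0%, the reverse order, in cells of unequal depth. Atf5 was found in 43.9% of WT cells and 32.4% of HFD cells.

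The other genes differed less. Shares were 58.5% and 62.6% for Atf4, 24.9% and 23.6% for Atf3, 28.8% and 32.5% for Asns, 25.8% and 25.1% for Ppp1r15a, 16.2% and 23.9% for Eif4ebp1, and 8.33% and 9.95% for Sesn2, in WT and HFD. Endothelial-like cells at the same depth, of which thinning left 90 in WT and 33 in HFD, had Chac1 in 14.4% (7.92 to 23.4) and 33.3% (18.0 to 51.8). Their median depths before thinning were 6662 and 3055 UMIs, against 29741 and 11910 in β-like cells. The endothelial-like shares were not used as a measure of background, and the part of released RNA in them was not tested.

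Single cells with several UMIs of a gene were seen for Ddit3, Atf4, Atf3 and Atf5. After thinning, 8.28% of HFD β-like cells and 2.07% of WT cells held at least 3 Ddit3 UMIs. Up to 13 were counted in an HFD cell. For Atf4 these shares were 8.71% and 6.71%, both above those of Ddit3. For Atf3 they were 2.64% and 3.69%, and for Atf5 2.49% and 4.14%, above Ddit3 in WT only. The variance of the UMIs over cells divided by their mean, which is 1 when UMIs fall on cells at random, was 1.58 for Ddit3 in HFD and 1.24 in WT. It was 1.85 and 1.86 for Atf3 and 1.35 and 1.23 for Atf5. For Trib3 in HFD it was 1.01 and for Chac1 1.10, close to random spread, although at 0.114 and 0.376 UMIs per cell on average the measure can show little.

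The main question was then whether the genes were high in the same β-like cells. A thinned cell held a UMI of 2.56 of the 10 genes on average in WT and of 3.01 in HFD. The variance of that number was 1.20 times the variance of independent genes in WT and 1.17 times in HFD. For 12 broadly expressed reference genes the same measure was 1.08 and 1.02, for 16 ER chaperone and ATF6 or XBP1 target genes 1.37 and 1.49, and for 13 immediate early genes 2.79 and 2.31. At this depth the excess over independent genes was thus small beside that of immediate early genes. The 10 genes were sparse there, from 0.0470 UMIs per cell for Trib3 in WT to 1.01 for Atf4 in HFD. Counts this sparse can hide part of a co-occurrence, so the excess does not show how strongly the genes vary together. The part of detection in the difference between the lists was not tested. For the 10 genes a second random thinning gave 1.10 in WT and 1.18 in HFD, beside 1.12 and 1.07 for the reference genes. Thinned to 2000 UMIs, the value in HFD was 1.06, below the 1.11 of the reference genes. In WT it was 1.07 there, beside 1.05. Thinned to 2000 UMIs other than insulin, it was 1.13 in WT and 1.12 in HFD, beside 0.988 and 1.03.

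Cells with many or none of the genes outnumbered what independent genes would give. In HFD, 298 of 5616 cells (5.31%) held at least 6 of the genes against 213 expected, and 74 held at least 7 against 39.4. In WT, 51 of 1789 cells (2.85%) held at least 6 against 25.6 expected. At the lower end, 166 HFD cells held none against 117 expected, and 97 WT cells against 70.9.

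**Figure D4:**
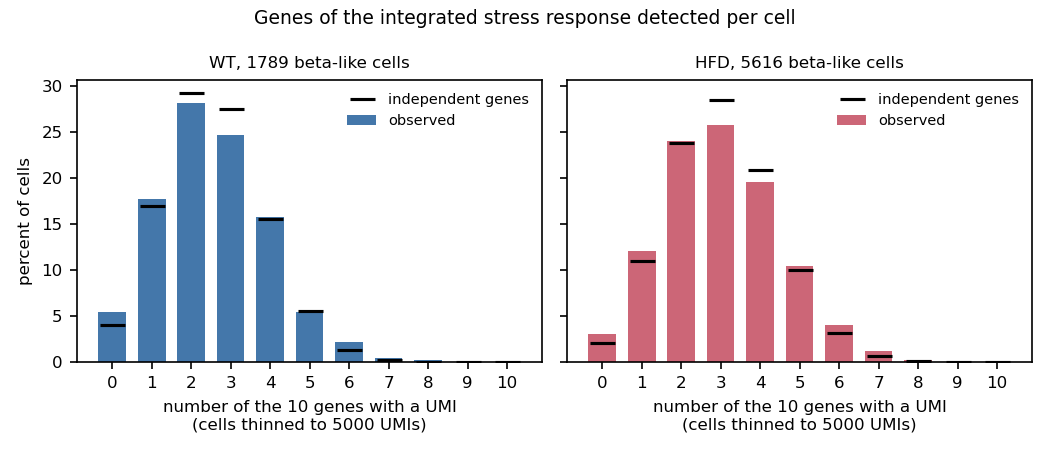
Percent of β-like cells (bars) by the number of the 10 genes with a UMI after thinning to 5000 UMIs, in WT (left) and HFD (right), with the percent that independent genes of the same shares would give (black marks). The bars exceed the marks at 0, at 1 and from 6 to 8, and lie below them at 3.

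Pairs of genes gave a like picture. Of the 45 pairs, 36 were found together in more HFD cells than expected and 33 in more WT cells, with medians of 1.04 and 1.07 times the expected number. The intervals of 6 HFD pairs and 3 WT pairs lay above 1, and those of 0 pairs in either library lay below 1. Intervals were not adjusted for the number of pairs. Trib3 was in 4 of the 6 HFD pairs, and Atf5 in 3. Trib3 and Eif4ebp1 were found together in 186 HFD cells against 144 expected, a ratio of 1.29 (1.11 to 1.49). Trib3 and Chac1 were together in 215 against 182, a ratio of 1.18 (1.03 to 1.35), and in WT in 16 against 9.03, a ratio of 1.77 (1.01 to 2.88). Thinned to 2000 UMIs the WT ratio was 3.10, with Trib3 in 36 and Chac1 in 84 of 1877 cells, so it rests on few cells. Thinned to 2000 UMIs other than insulin the WT ratio was 1.19.

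Ddit3 and Trib3, both higher in HFD, shared 294 HFD cells against 302 expected, a ratio of 0.972 (0.864 to 1.09). Thinned to 2000 UMIs that ratio was 1.22, so its direction depended on the depth. In WT they shared 30 cells against 28.0, a ratio of 1.07 that became 1.82 at 2000 UMIs, where 36 cells held Trib3. Ddit3 and Chac1 shared 897 HFD cells against 846, a ratio of 1.06 (0.992 to 1.13) that became 0.973 at 2000 UMIs, and Atf4 and Ddit3 1806 against 1761, a ratio of 1.03 (0.979 to 1.07). Cells with a UMI of Ddit3 or Trib3 made up 55.6% of HFD and 37.0% of WT β-like cells, and Chac1 was found in 32.0% of those HFD cells and in 27.7% of the rest.

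**Figure D5:**
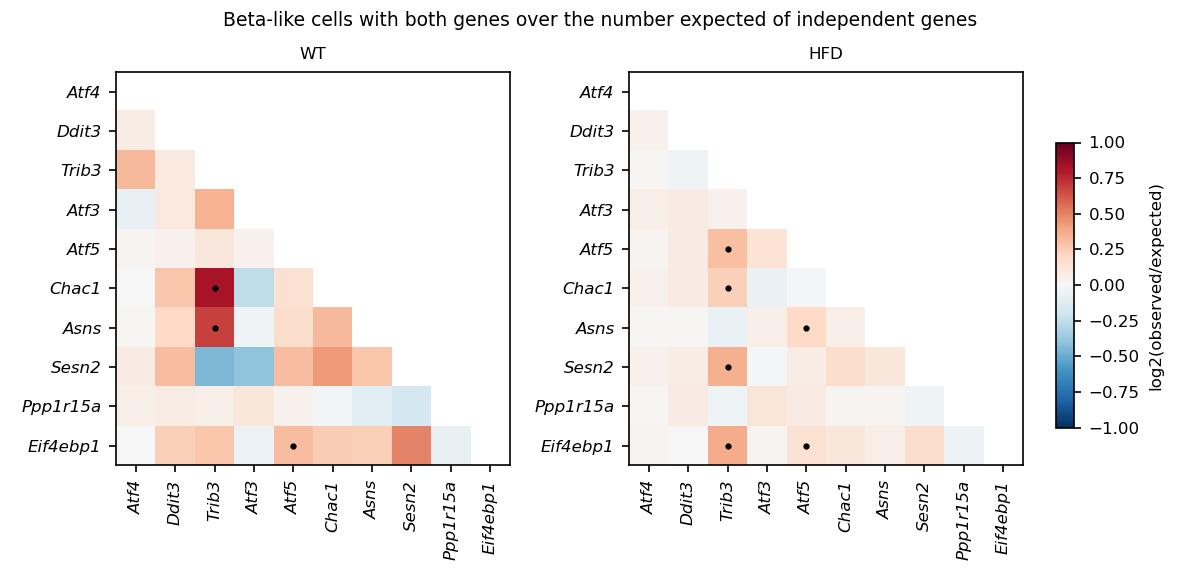
Number of β-like cells with both genes of a pair over the number expected of independent genes (log2 colour scale, red for more and blue for fewer), in WT (left) and HFD (right), after thinning to 5000 UMIs. Dots mark pairs whose 95% counting interval excludes 1: 3 pairs in WT and 6 in HFD, of which 4 include Trib3.

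Set against the immediate early genes, the 10 genes differed. Atf3 was found with them more often than expected, with a median over the 13 genes of 1.27 times in HFD and 1.18 times in WT, and Ppp1r15a with 1.10 and 1.04 times, above 1 for 13 of 13 genes in both libraries. Trib3 had medians of 0.897 and 0.766, Chac1 of 0.921 and 0.885, Sesn2 of 0.924 and 0.883 and Eif4ebp1 of 0.896 and 0.910. Those of Atf4 were 1.01 in both libraries, of Ddit3 1.01 and 1.02, of Asns 1.01 and 0.963 and of Atf5 1.05 and 0.991. Against the ER chaperone and ATF6 or XBP1 target genes all medians lay between 0.977 and 1.05. For Trib3, Ddit3 and Chac1 in HFD 15 of 16 of those pairs were above 1, with medians of 1.05, 1.03 and 1.02, and in WT 6, 9 and 10 of 16.

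β-like cells with more of the genes detected differed in other ways. In HFD, cells with 0 of the genes and with at least 5 had median mitochondrial shares of 2.98% and 3.41%, insulin shares of 58.1% and 56.2% and 1048 and 1140 genes at 5000 UMIs. Before thinning they held medians of 13087 and 11198 UMIs. In WT these pairs of values were 3.24% and 4.23%, 62.7% and 57.5%, 1025 and 1161 genes, and 34954 and 26501 UMIs. The part of mitochondrial share, insulin share and UMIs in the co-occurrence was not tested.

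Among 5457 other genes found in at least 5% of the thinned HFD cells, the 10 whose level followed the number of detected genes most closely were Mt1, Mt2, Actg1, Krt8, Nupr1, Jund, Herpud1, Ftl1, Actb and Lmna. Pearson's r over 5616 cells was 0.17 for Mt1 and 0.10 for Lmna, and over 1789 WT cells 0.21 and 0.10. Nupr1, a stress-induced chromatin protein, had 0.14 in HFD and 0.25 in WT. The cells share a library and a thinned depth, and correlations this weak in sparse counts are a description only. Each of the 10 genes against the number of the other 9 had an r of 0.03 to 0.10 in HFD.

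The rest of the pathway in β-like cells was described by lists. Of the 7 genes for eIF2 kinases and their phosphatase partners, 0 passed 1.5-fold in either direction and the median log2 ratio was -0.05. Eif2ak3, which encodes the ER kinase PERK, had 12.2 CPM in WT and 11.7 CPM in HFD, a ratio of 0.965 (0.876 to 1.06), and Eif2ak2, which encodes the RNA-sensing kinase PKR, had a ratio of 0.861 (0.758 to 0.978). Eif2ak4, which encodes the amino acid sensor GCN2, had 0.885 (0.732 to 1.07). Dnajc3 and Nck1 stood highest, at 1.26 and 1.15. The 8 subunits of eIF2 and eIF2B had a median log2 ratio of 0.02, with ratios from 0.949 for Eif2b1 and 0.951 for Eif2b3 to 1.09 for both Eif2s2 and Eif2b2.

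Few amino acid genes passed 1.5-fold. Of 11 genes of amino acid synthesis and one-carbon metabolism 10 had ratios above 1 and 0 passed 1.5-fold, with a median log2 ratio of 0.43. Pycr1, of proline synthesis, had 16.1 and 24.1 CPM, just short of 1.5-fold (1.39 to 1.62), and Psat1, of serine synthesis, a ratio of 1.42 (1.22 to 1.67). Mthfd1l and Shmt2 stood lowest, at 1.05 and 0.932. Of 8 amino acid transporter genes 2 were over 1.5-fold higher, with a median of 0.43 that was 0.05 with at most 15000 UMIs per cell. Slc7a11, the cystine carrier that feeds glutathione synthesis, had 1.96 CPM in WT and 5.95 CPM in HFD, a ratio of 3.04 (2.48 to 3.74), and Slc1a5 1.61 (1.14 to 2.31). Slc3a2 and Slc7a5 stood at 1.21 and 0.895.

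The 12 aminoacyl-tRNA synthetase genes, also known ATF4 targets, had a median of 0.04 with 0 past 1.5-fold, from Iars and Tars at 1.20 and 1.18 to Yars and Mars at 0.895 and 0.882. Of 11 bZIP partners and other ATF4-regulated genes 1 passed 1.5-fold upward, with a median of 0.04: Gpt2, an alanine aminotransferase, had a ratio of 1.65 (1.40 to 1.94). Gadd45a followed at 1.45 (1.33 to 1.58), and Ddit4 and Tmem154 were lowest at 0.785 and 0.774. The lists of targets thus differed in their medians in HFD β-like cells.

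For comparison, 3 of 16 ER chaperone and ATF6 or XBP1 target genes were over 1.5-fold higher, with a median of 0.38, led by Herpud1 at 2.36 (2.31 to 2.41) and Creld2 at 1.90 (1.83 to 1.97), with Xbp1 and Pdia4 at 1.01 and 0.955. Of 13 immediate early genes 9 were over 1.5-fold lower, with a median of -1.12. Fos, at 839 and 167 CPM, and Dusp1, at 87.9 and 20.3 CPM, were the lowest by ratio, whereas Klf6 and Fosb had ratios of 1.01 and 0.758. The part of this shift in the values of Atf3 and Ppp1r15a, which were found in the same cells as immediate early genes, was not tested. The 12 reference genes had a median of 0.02, from Eef1a1 and Eef2 at 1.24 and 1.16 to Tbp and Actb at 0.884 and 0.845.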

How the data were processed

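Single-cell RNA libraries of pooled islets from WT and HFD mice were analysed, 1 per group, and the groups were taken from the sample titles. The files deposited by the authors hold unnormalized UMI counts, one value for each gene in each barcode. The submitters' processing notes name Cell Ranger 3.0.2 and the build mm10. The WT library held 73843674 UMIs over 3895 barcodes and the HFD library 94375138 UMIs over 8951.

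Barcodes with at least 500 genes and at most 20% mt- UMIs were kept, with no UMI maximum. The automatic Scrublet threshold (scanpy v1.11.5) called 12 WT and 0 HFD barcodes and was judged not to have worked, so the barcodes with the highest scores were left out, 0.8% per 1000 barcodes (121 WT and 641 HFD). Cells were scaled to 10000 UMIs, square-root transformed and clustered (2000 variable genes without hormones, Cck and all listed genes, 50 principal components, 15 neighbours, Leiden resolution 1), mixed clusters were split again, and names required 3 detected markers. The scoring behind the names was adjusted after clusters had been seen, and shares of classes may differ with it. In all, 127 WT and 47 HFD cells stayed unnamed.

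The genes and lists were chosen with earlier results of these data known. All 10 genes are named, and of each list the 2 highest and 2 lowest ratios among genes with at least 50 UMIs. Eif2ak3 was named outside that rule, after its value was seen. UMIs were summed per class and library. Sums carry exact Poisson intervals, shares Clopper-Pearson intervals and ratios exact conditional intervals. The expected number of cells with both genes was the product of their shares, and its ratio carries the Poisson interval of the observed count. A count of 0 was given a limit of 3 counts. PCR duplicates were removed by UMIs. Depth set the precision: β-like cells held 62237766 and 78640094 UMIs and endothelial-like cells 1300735 and 472416.

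Ddit3 and Sesn2 overlap other genes of the same strand in GENCODE (GRCm38): AC144852.1 with 0 UMIs, and Gm12981 with 42 WT and 113 HFD UMIs in β-like cells. Scripts were tested on simulated data. Alternatives included edgeR (v4.0.16) TMM and DESeq2 (v1.42.0) size factors, used for scaling only, other cell filters and other thinning.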

Additional observations from a re-analysis of the deposited data

Results flagged for a closer look

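In 3 cases the interval of a ratio lay on one side of 1 in β-like cells and on the other side in another class. The difference between classes was not tested, since each group held 1 library. Atf4 had an HFD to WT ratio of 0.769 (0.615 to 0.961) in α-like cells and of 1.15 (1.12 to 1.18) in β-like cells. The median log2 ratio of all genes in α-like cells was -0.16, beside -0.38 for Atf4 there, and with TMM scaling the Atf4 ratio was 0.857. Atf5 had 2.13 (1.12 to 3.88) in ductal-like cells, from 36 WT and 17 HFD UMIs, and 0.690 (0.668 to 0.714) in β-like cells. Ppp1r15a had 1.22 (1.02 to 1.45) in ductal-like cells, from 608 and 165 UMIs, and 0.896 (0.859 to 0.936) in β-like cells.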

How the results depend on the processing

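No paired analysis was possible because the labels give no replicate numbers and each group held 1 library. Of 483 recomputed values, 423 kept within the limit set for them, 60 moved, and 0 called values changed direction. Chac1, Trib3 and Ddit3 stayed over 1.5-fold higher in β-like cells under every alternative run. Within single UMI bands, however, Ddit3 passed 1.5-fold in 2 of 5 and Trib3 in 4 of 5. The geometric mean over UMI bands, 1.86 for Ddit3 and 3.52 for Trib3, weighs bands with few WT UMIs like the others. At most 15000 UMIs per cell, which leaves few WT cells, lowered Trib3 to 1.98 and Chac1 to 2.27 and turned Atf3 to 1.05, Ppp1r15a to 1.16, Asns to 0.955 and Sesn2 to 0.889, and it lowered the median log2 ratio of the amino acid transporter genes from 0.43 to 0.05. The geometric mean within subclusters, chosen after seeing the data, gave Atf3 1.06, and the geometric mean over UMI bands gave Asns 0.879. The median log2 ratio of the 10 genes in β-like cells was 0.17 with at most 15000 UMIs, 0.20 with CPM without islet hormones and mt- genes, 0.19 over UMI bands and 0.42 within subclusters, and the first 3 of these settings put 1 gene (Atf5) past 1.5-fold lower. In α-like cells 1 gene was over 1.5-fold lower with at most 15000 UMIs. In endothelial-like cells 4 genes and not 5 were higher with at most 15000 UMIs and by the mean of single-cell CPM, where Asns no longer passed. In δ-like cells 0 genes were lower with at most 10% mt- UMIs and 0 higher by the mean of single-cell CPM. The variance ratio of the number of genes per cell was 1.40 in WT with at most 15000 UMIs, 1.07 in WT and 1.06 in HFD thinned to 2000 UMIs, 1.13 in WT thinned to 2000 UMIs other than insulin, and 1.10 in WT with a second seed. For the reference genes it was 1.24 in WT with at most 15000 UMIs, and for immediate early genes it ran from 1.98 to 2.88 over the settings. The causes were not tested. CPM without islet hormones moved the median log2 ratio of all genes in β-like cells to -0.11, and at most 15000 UMIs to -0.13.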
